A study of Homo sapiens with 20 samples.

Results

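The BCL2 family of cell death regulators was followed through 10 genes: BCL2, BCL2L1, MCL1, BCL2A1, BCL2L11, BAX, BAK1, BBC3, PMAIP1 and BID. They were chosen by name as rows of the gene count table, and all 10 were found among its 54261 features. The cells were TPC-1, an established human papillary thyroid cancer line. In 6 RNA-seq libraries (coculture) the line had been kept for 48 h together with PMN-MDSCs, the polymorphonuclear kind of myeloid-derived suppressor cell, which are immature, neutrophil-like and restrain T cells. In 4 RNA-seq libraries (control) it was untreated, and 6 coculture and 4 control libraries of mature miRNAs were made alongside. Every library came from this 1 line, and the sources used here do not give the origin of the PMN-MDSCs, the mode of coculture or any separation of the cell types before RNA extraction. The labels do not say whether each library was a separate culture. The p-values therefore weigh each group difference only against the spread of these libraries, which may be technical variation.

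Proteins of this family decide whether the outer membrane of the mitochondrion is breached, the step that releases cytochrome c and starts the caspases. The effectors BAX and BAK1 form the pores. The anti-apoptotic members BCL2, BCL-XL (from BCL2L1), MCL1 and BCL2A1 hold the effectors and their activators in check, and the BH3-only members BIM (from BCL2L11), PUMA (from BBC3), NOXA (from PMAIP1) and BID sense stress and release or activate the effectors. Carcinoma cells depend on the balance between these classes, and much of it is set by protein stability and binding, which RNA counts do not measure.

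RNA-seq libraries held 40237801 to 48197608 counts and miRNA-seq libraries 3971608 to 5895539. In a principal component analysis of the genes tested by RNA-seq, the leading component held 47.7% of the variance, and coculture 1 and 2 lay on it at -51.4 and -47.7, apart from the other 8 libraries at 0.137 to 20.6. The thyroid factor PAX8 had 507 to 769 CPM (reads scaled so that all libraries have the same total) in coculture and 496 to 522 CPM in control, and the epithelial keratins KRT8 and KRT18 were abundant. Of the other thyroid genes, the factor FOXE1 had 6.32 to 11.8 CPM in coculture and 8.94 to 11.1 CPM in control, and thyroglobulin (TG) 0.978 to 2.78 CPM in coculture and 0.271 to 1.24 CPM in control (log2 fold change 1.22, unadjusted p 0.0217, adjusted p 0.377 in edgeR's quasi-likelihood test). The remaining ones were at or near 0: NKX2-1, TSHR, SLC5A5 and the epithelial cadherin CDH1 had no count in the 4 controls and at most 0.0917 CPM in coculture. Leukocyte transcripts differed between the groups. The 12 of 16 pan-leukocyte markers that were under 1 CPM in control summed to 14.9, 7.43, 17.3, 22.1, 17.2 and 27.9 CPM in coculture 1 to 6, and to 0.429 to 0.582 CPM in control.

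BCL2A1 was the member that changed. It was 7.22 times as abundant in coculture as in control, while each of the other 9 members had an estimated difference between -0.28 and 0.18 on the log2 scale. At an adjusted p under 0.05 (edgeR's quasi-likelihood test, Benjamini-Hochberg adjustment over 15629 tested genes), 1 of the 10 members was higher in coculture, 0 were lower and 9 were not called. All 10 had passed the filter on low counts. BCL2L1 and BBC3 had negative fold changes at an unadjusted p under 0.05, and DESeq2 and limma-voom also called 0 members lower. Over all tested genes, 207 (1.32%) were called, 178 (1.14%) higher and 29 (0.186%) lower. The groups did not overlap for 2 of the 10 members (20%), BCL2A1 and BBC3, against 566 of all genes (3.62%), and 3 members had an unadjusted p under 0.05, against 1509 of all genes (9.66%).

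**Figure D1:**
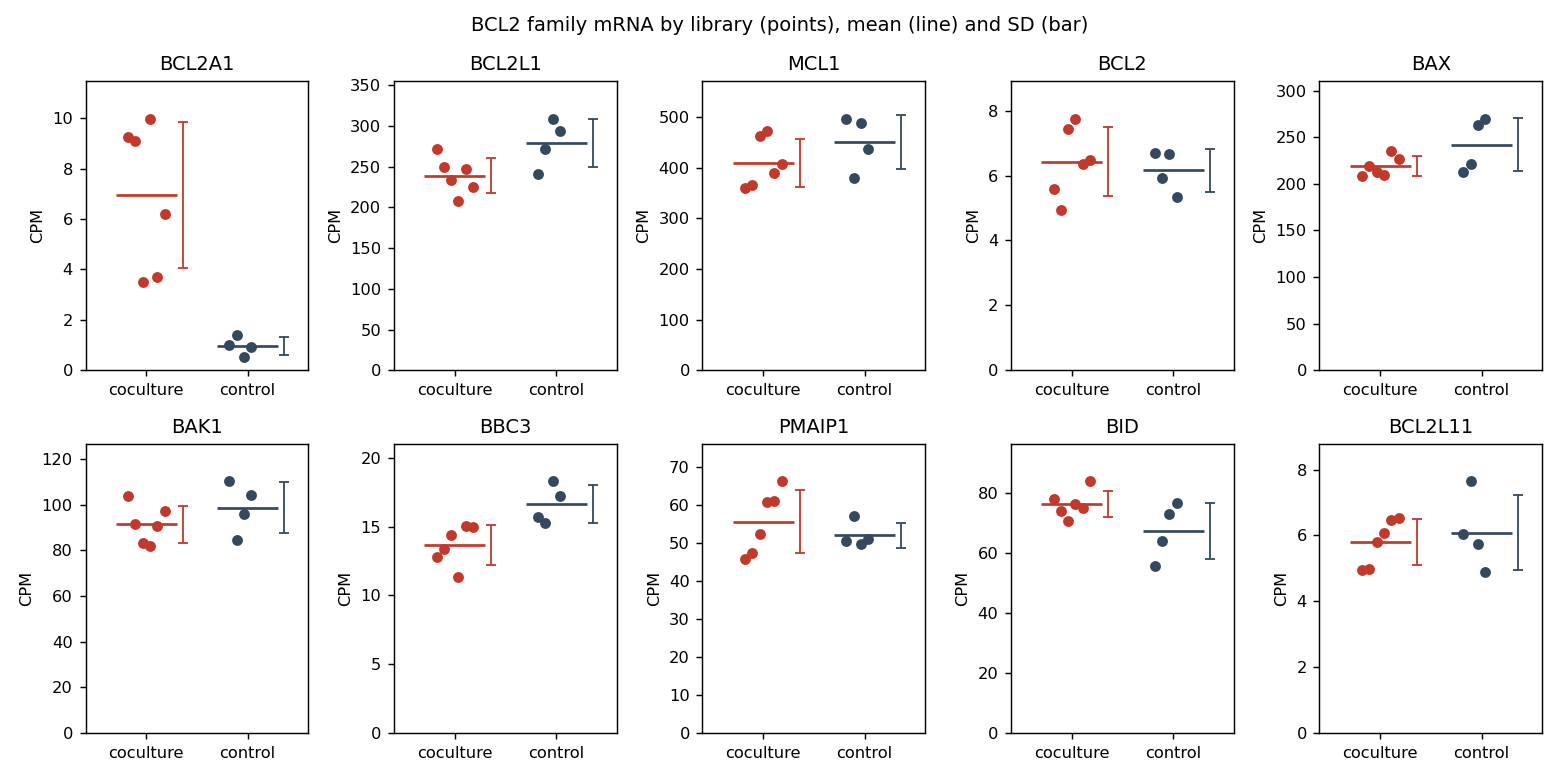
Level of each of the 10 BCL2 family genes in CPM (vertical axis, linear, 1 panel per gene), with 1 point per library, a line at the group mean and a bar for the SD, in 6 coculture and 4 control libraries. The BCL2A1 points of coculture lie between 3.51 and 9.98 CPM, all above the highest control at 1.41 CPM, and BBC3 shows the opposite order with a small gap.

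BCL2A1 encodes a short-lived anti-apoptotic protein that binds BH3-only proteins and is induced by NF-kB. It lies on the minus strand of chromosome 15 (chr15:79960890-79971301, GRCh38.p10), and its transcript model in the deposited table is 943 bases long. The gene had 403, 433, 147, 420, 147 and 257 reads in coculture 1 to 6, against 46, 57, 22 and 41 in control 1 to 4. The lowest control count, 22, has an exact 95% Poisson interval of 13.8 to 33.3, so counting error is a visible part of the control values. Scaled for depth these were 9.24, 9.12, 3.51, 9.98, 3.71 and 6.19 CPM in coculture, against 0.983, 1.41, 0.534 and 0.926 CPM in control. Coculture 1, 2 and 4 were the highest, coculture 3 and 5 the lowest of their group, and 6 of 6 exceeded all controls. The means were 6.96 ± 2.90 CPM in coculture (SD, n = 6) and 0.963 ± 0.358 CPM in control (SD, n = 4). The log2 fold change was 2.85 ± 0.38 (SE; 95% interval 2.01 to 3.69), which is a fold of 7.22 (4.04 to 12.9), with an adjusted p of 0.00181 in edgeR's quasi-likelihood test. BCL2A1 ranked 62 among all tested genes by this value. It was also the most variable member within a group, with a coefficient of variation of 41.7% in coculture, against 4.90% to 16.6% for the other 9.

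The window around the start of BCL2A1 is shown because this gene alone among the members was called. The 300 bases are those of RefSeq (GRCh38.p14, chr15:79971147-79971446, minus strand), from 250 bases before the start to 50 after it, written 5′ to 3′, and the capitals mark a TATAAA match that begins at position -70 from the RefSeq start. The gene end of the deposited table, 79971301, lies upstream of that start and within the window, so the match is upstream of the RefSeq start but inside the deposited gene.
BCL2A1: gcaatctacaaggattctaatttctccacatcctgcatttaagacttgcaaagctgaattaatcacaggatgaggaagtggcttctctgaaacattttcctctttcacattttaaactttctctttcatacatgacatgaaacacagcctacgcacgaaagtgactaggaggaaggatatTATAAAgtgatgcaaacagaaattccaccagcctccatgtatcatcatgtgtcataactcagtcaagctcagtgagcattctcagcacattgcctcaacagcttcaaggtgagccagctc

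This window was poor in G and C for a promoter of the family. Its GC content was 41%, and 13% of the 35116 windows of the RefSeq table were lower, with a median of 58.7% over all of them. It held 2 CpG dinucleotides, against a median of 14. Windows were found for 9 of the 10 members, 14 windows in all, and those of the other members had a GC content of 48% to 78%. BID alone had 5 windows that overlap in part, so the 14 are not independent and 1 site can be counted more than once. Both strands were searched for 4 motifs. The core TATAAA occurred in 11.5% of all windows and in 2 of the 14, those of BCL2A1 and BCL2L1. The NF-kB pattern, GGG followed by any 5 bases and CC, occurred in 58.7% of all windows. It was in 10 of the 14 windows of members, every BID window among them, but these letters were not in the BCL2A1 window. The AP-1 pattern TGANTCA was in 7.71% of all windows and in 1 of the 14, that of BBC3. The E-box CACGTG was in 7.26% of all windows and in 4 of the 14, and the BAX window held it 4 times. Of these 4 windows, 2 are overlapping windows of BID that hold the same site. A match describes letters in a window and does not show that a factor binds there, and its absence says nothing of sites elsewhere.

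BCL2A1 is normally abundant in blood cells, neutrophils and monocytes included, so leukocyte markers were set beside it. Of 20 neutrophil and PMN-MDSC markers, 7 (FCGR3B, CXCR1, CXCR2, ELANE, PRTN3, MMP8 and ARG1) had no count in any coculture library and 13 had none in any control. The 19 markers of this list under 1 CPM in control summed to 1.16 to 3.98 CPM in coculture and 0.121 to 0.449 CPM in control. These were kept for being low in control, which favours a higher sum in coculture. Even so, LTF had 9 reads in coculture and 23 in control, and CAMP 7 and 8. With FPR1 added (means of 7.65 and 7.45 CPM), all 20 summed to 6.89 to 13.6 CPM in coculture and 6.17 to 9.69 CPM in control, which overlap. The integrin ITGAM (CD11b) averaged 1.17 ± 0.470 CPM in coculture (SD, n = 6) and had 3 reads in all 4 controls together. The calprotectin subunit S100A9 averaged 0.931 ± 0.521 CPM in coculture and had 1 read in all controls. Of 16 monocyte and macrophage markers, C1QA and AIF1 had no count in any coculture library, and 15 were under 1 CPM in control, and they summed to 16.6 to 27.9 CPM in coculture, against 0.641 to 1.12 CPM in control. Lysozyme (LYZ), secreted by monocytes and neutrophils, averaged 13.9 ± 2.17 CPM in coculture and 0.0860 ± 0.0783 CPM in control, and the endotoxin co-receptor CD14 averaged 2.90 ± 1.22 and 0.0863 ± 0.0435 CPM. The NADPH oxidase subunit CYBB averaged 5.80 ± 2.26 CPM in coculture and 0.0736 ± 0.0546 CPM in control.

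Within the coculture libraries, BCL2A1 and the leukocyte markers shared their order only in part. Coculture 2 had the lowest pan-leukocyte sum (7.43 CPM) and the lowest LYZ (9.79 CPM), with BCL2A1 at 9.12 CPM. Coculture 6 had the highest pan-leukocyte sum (27.9 CPM) and the highest LYZ (15.8 CPM), with BCL2A1 at 6.19 CPM. Coculture 4 had the highest BCL2A1 (9.98 CPM) and a pan-leukocyte sum (22.1 CPM) that only coculture 6 exceeded. Coculture 3 and 5, the lowest in BCL2A1, had pan-leukocyte sums of 17.3 and 17.2 CPM. Few of the neutrophil markers were deep enough to test: 2 of 3 tested were called higher, as were 6 of 7 monocyte and macrophage markers and 10 of 12 pan-leukocyte markers. Over all tested genes, 1.14% were called higher. Markers with almost no control reads, such as CD53 and TYROBP with 0, could pass the low-count filter only through coculture. For these a call of higher was nearly fixed in advance, so the counts lend no separate support. The part of leukocyte RNA in the BCL2A1 difference was not tested. In such bulk libraries, a change in the number of cells of a type and a change in RNA per cell cannot be told apart. Without coculture 1 and 2, the libraries that stood apart on the first principal component, the BCL2A1 log2 fold change was 2.59, with an adjusted p of 0.00378 in edgeR's quasi-likelihood test.

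**Figure D2:**
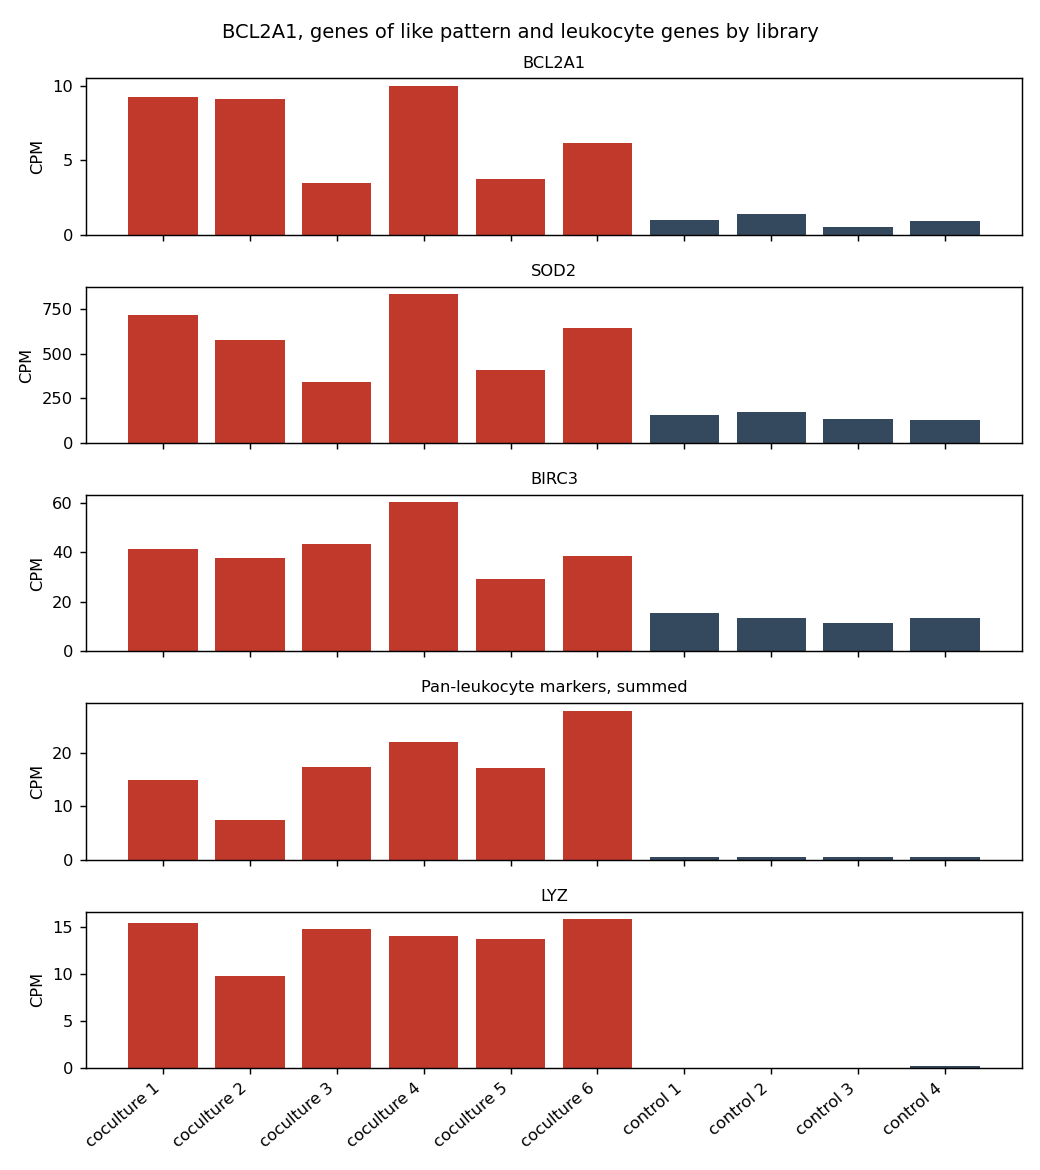
Level in each library (bars, CPM on linear axes that start at 0) of BCL2A1, SOD2, BIRC3, the summed pan-leukocyte markers under 1 CPM in control, and LYZ, with the 6 coculture libraries left of the 4 controls. BCL2A1 and SOD2 are lowest within coculture in libraries 3 and 5, and the leukocyte sum and LYZ are lowest in library 2. SOD2 is the gene nearest to BCL2A1 in pattern, so the order they share follows from that choice.

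The genes whose pattern over the 10 libraries was nearest to that of BCL2A1 were SOD2, MIR3142HG, TNFRSF9, ICAM1 and N4BP3. Likeness was the root mean square difference of log2(CPM + 0.5) after centring each gene, over 12864 genes with a mean of at least 1 CPM, and it was 0.288 for SOD2 and 0.326 for N4BP3. SOD2, the mitochondrial superoxide dismutase, had 712, 577, 339, 831, 408 and 641 CPM in coculture 1 to 6, against 157, 176, 134 and 131 CPM in control 1 to 4. As for BCL2A1, coculture 3 and 5 were the lowest of their group and coculture 4 the highest. ICAM1, an adhesion molecule for leukocytes, averaged 229 ± 90.3 CPM in coculture and 51.9 ± 9.34 CPM in control. TNFRSF9, the receptor 4-1BB, averaged 30.7 ± 7.98 CPM in coculture and 6.67 ± 2.99 CPM in control. MIR3142HG, the host transcript of miR-3142, averaged 6.75 ± 2.79 CPM in coculture and 0.672 ± 0.264 CPM in control. The distance includes the gap between the groups, so their higher level in coculture (log2 fold changes of 1.97 to 3.32) and the shared order of libraries follow from how the 5 were picked.

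BCL2L1 and MCL1 were the main anti-apoptotic transcripts in both groups, and neither was called. BCL2L1 (chr20:31664452-31723999, minus strand) encodes BCL-XL, which protects mitochondria in epithelial cells. It had 207, 241 and 271 CPM (lowest, median and highest) in coculture, against 241, 272, 309 and 294 CPM in control 1 to 4. Of the 6 coculture libraries, 3 were below all controls, and the groups overlapped. Its log2 fold change was -0.22 ± 0.09 (SE; 95% interval -0.43 to -0.02), with an unadjusted p of 0.0342 and an adjusted p of 0.451 in edgeR's quasi-likelihood test. BCL2L1 overlaps the antisense transcript ABALON over 1903 bases. ABALON held 4.18% as many reads as BCL2L1, and with no stated strand setting the reads of both cannot be separated.

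MCL1 (chr1:150574551-150579738, minus strand) encodes a protein with a very short half-life, so its mRNA must be made continually. It had 359, 399 and 472 CPM in coculture, against 496, 380, 487 and 437 CPM in control. Coculture 1 and 2 were the lowest of their group, below all controls, and the groups overlapped. MCL1 had a log2 fold change of -0.14 ± 0.11 (SE) and an adjusted p of 0.719. BCL2 itself (chr18:63123346-63319778, minus strand), the founding member, was scarce, with 4.95, 6.41 and 7.75 CPM in coculture, against 6.71, 5.93, 6.67 and 5.33 CPM in control. Coculture 1 and 2 were again the lowest of their group. Its log2 fold change was 0.06 ± 0.15 (SE), with an adjusted p of 0.930 in edgeR's quasi-likelihood test.

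Neither effector was called. BAX (chr19:48954825-48961798, plus strand) waits in the cytosol until activated. It had 209, 216 and 236 CPM in coculture, against 213, 222, 263 and 270 CPM in control. The coculture values were tight, with a coefficient of variation of 4.90%, and lay within or just under the control range. For BAX the log2 fold change was -0.14 ± 0.08 (SE), with an adjusted p of 0.623. BAK1 (chr6:33572546-33580293, minus strand) encodes the effector that resides in the mitochondrial membrane. It had 82.0, 91.1 and 104 CPM in coculture, against 110, 84.3, 95.8 and 104 CPM in control, and a log2 fold change of -0.11 ± 0.10 (SE) with an adjusted p of 0.761. The groups overlapped for both genes.

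Among the BH3-only genes, BBC3 came nearest to a call. BBC3 (chr19:47220822-47232998, minus strand) encodes PUMA, a p53-induced protein that binds all anti-apoptotic members. It had 11.3, 13.9 and 15.0 CPM in coculture, against 15.7, 15.3, 18.3 and 17.2 CPM in control. All 6 coculture libraries were below all 4 controls, by a narrow margin. The log2 fold change was -0.28 ± 0.11 (SE; 95% interval -0.52 to -0.04), with an unadjusted p of 0.0242 and an adjusted p of 0.398 in edgeR's quasi-likelihood test, so it did not pass the correction over all genes. The 5 genes nearest to BBC3 in pattern were LMAN2L, PPP1R3F, PHF23, CMBL and CARD10, at distances of 0.0603 to 0.0855.

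PMAIP1 split the coculture libraries. This gene (chr18:59899960-59904306, plus strand) encodes NOXA, which binds MCL1 and directs it to degradation. It had 45.7, 56.6 and 66.2 CPM in coculture, against 50.5, 57.0, 49.7 and 51.0 CPM in control. Coculture 1 and 2 lay below all controls at 45.7 and 47.3 CPM, and coculture 4, 5 and 6 above all controls at 60.8 to 66.2 CPM. PMAIP1 had a log2 fold change of 0.09 ± 0.11 (SE), with an adjusted p of 0.83. BID (chr22:17734140-17774665, minus strand) encodes the link from death receptors to mitochondria, which caspase-8 cleaves. It had 70.5, 75.6 and 83.7 CPM in coculture, against 55.6, 63.9, 72.9 and 76.5 CPM in control, with a log2 fold change of 0.18 ± 0.10 (SE) and an adjusted p of 0.594.

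BCL2L11 (chr2:111120914-111168445, plus strand) encodes BIM, a strong activator of BAX and BAK1. It had 4.95, 5.93 and 6.52 CPM in coculture, against 6.05, 7.64, 5.75 and 4.90 CPM in control. No coculture library was outside the control range. The log2 fold change was -0.07 ± 0.15 (SE), with an adjusted p of 0.916 in edgeR's quasi-likelihood test. Coculture 1 and 2 were the lowest coculture libraries for this gene too, as they were for MCL1, BCL2 and PMAIP1. Over the 9 members other than BCL2A1, the 95% intervals together ran from a fold of 0.695 to one of 1.31, so changes outside that range were not within the interval of any of them.

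**Figure D3:**
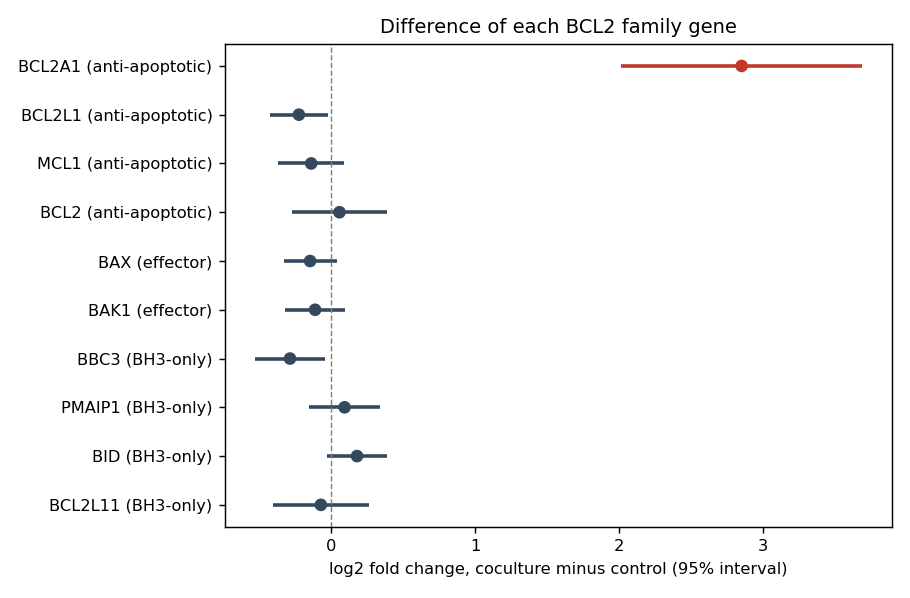
Log2 fold change of each of the 10 members, coculture minus control (horizontal axis), with points at the estimate and lines for the 95% interval, ordered by class from anti-apoptotic genes at the top to BH3-only genes at the bottom. The BCL2A1 interval of 2.01 to 3.69 lies far right of the others, which all lie between -0.52 and 0.39.

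The size of the members' differences, BCL2A1 aside, was close to that of genes in general. The median log2 fold change was -0.09 over the 10 members, -0.11 over the 9 without BCL2A1 and 0.0082 over all tested genes. The median absolute value was 0.14 over the 10 members, 0.14 over the 9 without BCL2A1 and 0.14 over all genes. A positive fold change was seen in 4 of the 10 members and in 3 of the 9 without BCL2A1, against 8081 of all tested genes (51.7%). These counts describe the list and carry no test of their own.

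Levels were compared between genes per transcript length, in TPM, a share of all transcripts computed from the deposited counts and lengths. In coculture BAX was the highest member at a mean of 535 TPM, followed by MCL1 at 223, BCL2L1 at 189, BAK1 at 88.2, BID at 67.1 and PMAIP1 at 63.8 TPM. BBC3 and BCL2A1 followed at 16.5 and 16.3 TPM, and BCL2 and BCL2L11 were lowest at 2.20 and 2.15 TPM. In control the order was BAX at 609, MCL1 at 253, BCL2L1 at 227, BAK1 at 98.5, PMAIP1 at 61.7, BID at 60.9 and BBC3 at 20.6 TPM. BCL2A1, BCL2L11 and BCL2 closed it at 2.36, 2.34 and 2.18 TPM. The ranges of MCL1 and BCL2L1 overlapped in both groups, and so did those of BID and PMAIP1. BCL2A1 overlapped with BBC3 in coculture, and with BCL2L11 and BCL2 in control, so BCL2A1 was on the level of the scarcest members in control and on that of BBC3 in coculture.

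Despite its large change, BCL2A1 remained a small part of the summed TPM of the 4 anti-apoptotic members. That sum averaged 430 ± 22.0 TPM in coculture (SD, n = 6) and 485 ± 33.3 TPM in control (SD, n = 4), and the groups overlapped. BCL2A1 made up 1.85% to 5.26% of the TPM of the 4 anti-apoptotic genes in coculture (median 4.26%), against 0.245% to 0.777% in control (median 0.478%). The 4 genes together held 33.7% to 37.6% of the TPM of all 10 members in coculture and 34.3% to 38.1% in control. The 2 effectors held 49.7% to 53.6% in coculture and 51.4% to 55.0% in control, and the 4 BH3-only genes 11.6% to 13.8% in coculture and 10.4% to 12% in control. The ranges of all 3 classes overlapped between the groups. The ratio of BAX to BCL2L1 in TPM was 2.38 to 3.12 in coculture and 2.52 to 2.83 in control, and that of MCL1 to BCL2L1 was 0.910 to 1.56 in coculture and 0.960 to 1.41 in control. These shares were not tested, and they cover the 10 members only. Outside them, BCL2L2 averaged 25.8 TPM in coculture and 29.7 TPM in control, and BAD 87.3 and 86.5 TPM.

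**Figure D4:**
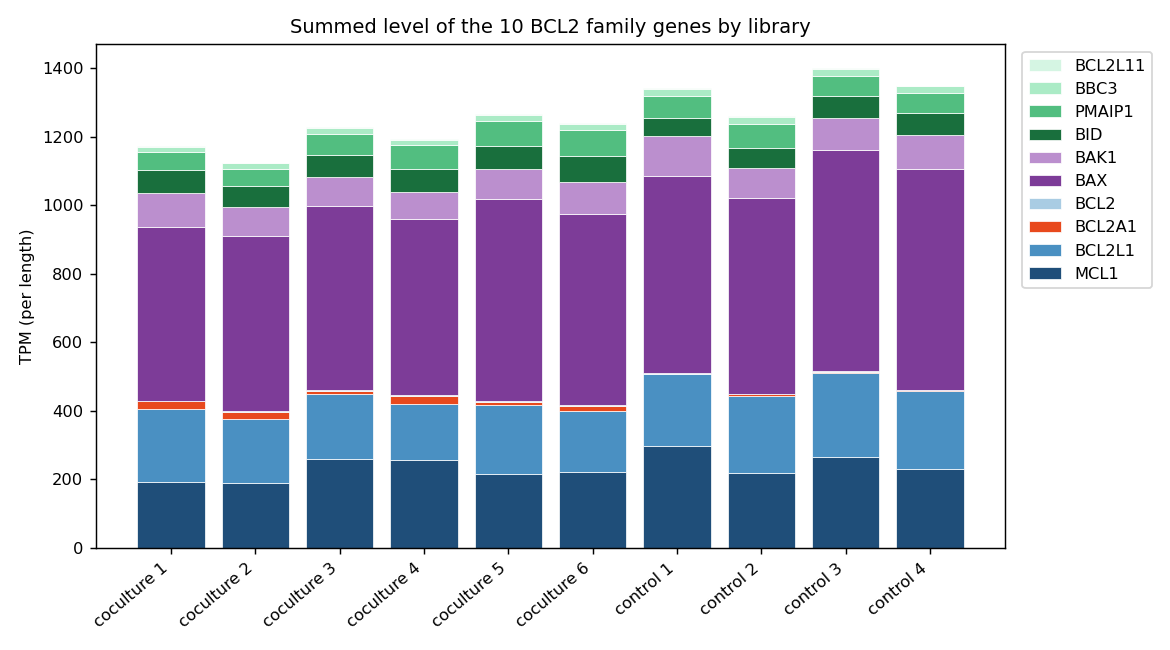
Summed TPM of the 10 members in each library (stacked bars from 0, 1 colour per gene), with the 6 coculture libraries left of the 4 controls. BAX, MCL1 and BCL2L1 fill most of every bar, BCL2A1 is a thin band that is wider in coculture, and the totals are 1124 to 1266 TPM in coculture and 1259 to 1400 TPM in control.

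Genes that surround the family in the cell death pathway were read from 9 lists with 97 entries, of which 96 were in the table and 85 were tested. In all, 5 of the 85 were higher in coculture, 1 was lower and 79 were not called. Over all tested genes, 1.14% were called higher and 0.186% lower. All 5 that were higher belong to the list of NF-kB target survival genes, where 5 of 9 tested genes were called and the median log2 fold change was 1.56. The lists were chosen with earlier results of these data known, so these counts describe the lists and lend no independent support. BIRC3, an inhibitor of apoptosis protein that acts at TNF receptors, averaged 41.8 ± 10.3 CPM in coculture and 13.5 ± 1.65 CPM in control, with a log2 fold change of 1.63 ± 0.18 (SE) and an adjusted p of 0.000576 in edgeR's quasi-likelihood test. It is also the only called gene of 6 tested inhibitors of apoptosis proteins. SOD2 had a log2 fold change of 1.97 ± 0.23 (SE). TRAF1, a partner of BIRC3 in TNF receptor complexes, averaged 8.85 ± 2.21 CPM in coculture and 3.00 ± 0.367 CPM in control. NFKBIA, the inhibitor that holds NF-kB in the cytosol, averaged 120 ± 31.8 CPM in coculture and 37.6 ± 11.5 CPM in control. TNFAIP3 (A20), an enzyme that dampens NF-kB signalling, averaged 23.9 ± 10.2 CPM in coculture and 4.35 ± 2.31 CPM in control. Both NFKBIA and TNFAIP3 are known as feedback inhibitors of the NF-kB pathway. The pan-leukocyte sum and LYZ given above were higher in coculture too, and their part in these differences was not tested. Within coculture they were lowest in library 2, and SOD2 was lowest in library 3.

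In the other lists no gene of the death machinery was called, at a background of 1.32% over all genes. None of 15 tested genes of the apoptosome and caspases was called, nor any of 10 death receptors and adaptors, 5 outer membrane channels and partners, 11 transcription factors that control members or 9 genes of MCL1, BCL2L11 and PMAIP1 turnover. At an unadjusted p under 0.05 these lists held 2, 1, 0, 2 and 1 genes, against 9.66% of all tested genes, so neither count sets these lists apart from the rest. DESeq2 and limma-voom called 0 genes of these lists, except for NFKB1 in DESeq2. NFKB1, which encodes an NF-kB subunit, averaged 111 ± 10.2 CPM in coculture and 87.5 ± 2.58 CPM in control, with a log2 fold change of 0.34 ± 0.08 (SE) and an adjusted p of 0.0887 in edgeR's quasi-likelihood test. Cytochrome c (CYCS) averaged 180 ± 45.0 CPM in coculture and 177 ± 17.3 CPM in control. The TRAIL receptor TNFRSF10B averaged 493 ± 37.8 CPM in coculture and 427 ± 37.3 CPM in control, with a log2 fold change of 0.21 ± 0.09 (SE) and an adjusted p of 0.445. ATF4, a stress factor that drives PMAIP1, averaged 707 ± 20.1 CPM in coculture and 582 ± 70.2 CPM in control. Its groups did not overlap, and its log2 fold change of 0.28 ± 0.08 (SE) had an adjusted p of 0.186. The survivin gene BIRC5, the cyclophilin PPIF and the BIM-binding dynein chain DYNLL1 had log2 fold changes of -0.10, -0.05 and -0.07.

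Among 14 p53 targets, 1 was lower in coculture and the median log2 fold change was -0.15. Over all tested genes, 0.186% were called lower and the median was 0.0082. The list held 3 genes at an unadjusted p under 0.05 in edgeR's quasi-likelihood test, against 9.66% of all tested genes. Of these, TNFRSF10B had a positive fold change and the others negative ones. The called gene was SESN1, a sestrin that restrains mTORC1, at 13.3 ± 1.33 CPM in coculture (SD, n = 6) and 20.0 ± 1.72 CPM in control (SD, n = 4). Its log2 fold change was -0.59 ± 0.11 (SE), with an adjusted p of 0.0140 in edgeR's quasi-likelihood test. The adjusted p was 0.0609, 0.0539 and 0.0590 without control 1, control 3 and control 4. CDKN1A, the p21 gene and the highest of the list in TPM, averaged 333 ± 43.4 CPM in coculture and 375 ± 25.1 CPM in control, and was not called. The list also holds targets that arrest the cycle and do not kill cells.

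Of 16 further BCL2 family genes, 12 passed the filter on low counts and 0 were called (edgeR's quasi-likelihood test, with 0 at an unadjusted p under 0.05, and 0 calls in DESeq2 and limma-voom). Over all tested genes 1.32% were called and 9.66% had an unadjusted p under 0.05, so the lack of calls does not set these genes apart. BNIP3, a mitophagy receptor with a BH3-like stretch and the highest of them in TPM, had 121, 159, 83.3, 85.7, 76.1 and 88.7 CPM in coculture 1 to 6, against 71.2, 74.1, 95 and 87.5 CPM in control. Coculture 1 and 2 were above every other library. The same 2 libraries stood apart for BNIP3L and BMF, which were named after their values were seen. BNIP3L, its mitophagy partner, had 51.0 and 56.6 CPM in coculture 1 and 2 and 17.3 to 18.9 CPM in coculture 3 to 6, against 18.3 to 22.9 CPM in control. BMF, a BH3-only gene linked to cell detachment that did not pass the filter, had 119, 68, 3, 10, 10 and 1 reads in coculture 1 to 6, against 10, 5, 5 and 5 in control. The log2 fold change of BNIP3L was 0.61 ± 0.37 (SE) with all libraries and -0.14 without coculture 1 and 2, and it was called in neither case.

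miRNAs with published targets in the family were examined in the second assay. A miRNA pairs with its mRNA targets mainly through its seed, bases 2 to 8, and lowers their stability or translation. The list held 33 miRNAs in 18 seed groups, and targets are given as background from the literature, not as results. The most abundant miRNA for each target is shown with its seed in capitals, together with miR-222-3p and miR-181a-5p, which share a seed with miR-221-3p and miR-181b-5p. The sequences are those of the deposited miRNA table and are the same as in RefSeq (GRCh38.p14), written 5′ to 3′ with T for U.
hsa-miR-221-3p: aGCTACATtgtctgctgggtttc
hsa-miR-222-3p: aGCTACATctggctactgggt
hsa-miR-181a-5p: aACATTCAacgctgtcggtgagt
hsa-miR-181b-5p: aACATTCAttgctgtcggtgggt
hsa-let-7a-5p: tGAGGTAGtaggttgtatagtt
hsa-miR-125b-5p: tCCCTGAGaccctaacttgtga
hsa-miR-26a-5p: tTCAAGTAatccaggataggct

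None of the 33 listed miRNAs was called in either direction. All 33 were tested, and the smallest adjusted p was 0.353 (edgeR's quasi-likelihood test, adjusted over 797 miRNAs). Over all tested miRNAs 10 (1.25%) were called, 9 (1.13%) higher and 1 (0.125%) lower. At an unadjusted p under 0.05, the list held 4 miRNAs in edgeR, 2 in DESeq2 and 6 in limma-voom, against 91 of all miRNAs (11.4%) in edgeR, and DESeq2 and limma-voom also called 0. Log2 fold changes ran from -0.53 to 0.47, and 19 of 33 were positive, against 343 of all 797 (43%). The median was 0.07 for the list and -0.05 for all miRNAs.

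The miR-221/222 pair, with BCL2L11 and BBC3 as described targets, was abundant. miR-221-3p averaged 31703 ± 2602 CPM in coculture (SD, n = 6) and 30204 ± 5480 CPM in control (SD, n = 4), and miR-222-3p averaged 20655 ± 2302 and 19712 ± 5500 CPM. Both log2 fold changes were 0.07, with 95% intervals of -0.20 to 0.34 and -0.28 to 0.41. let-7a-5p, described for BCL2L1, averaged 32906 ± 5852 CPM in coculture and 28292 ± 9025 CPM in control. miR-125b-5p, described for MCL1, BBC3 and BAK1, averaged 7314 ± 1273 CPM in coculture and 6963 ± 792 CPM in control. miR-26a-5p, described for BAK1, averaged 9456 ± 2094 CPM in coculture and 7871 ± 2945 CPM in control. For all of these the groups overlapped.

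Of the listed miRNAs, miR-181a-5p, described for BCL2, had the smallest p. It had 2370, 2790 and 2959 CPM (lowest, median and highest) in coculture and 2965, 3161 and 4067 CPM in control. All coculture libraries were below all controls, by a gap that is small against the spread. It was the 1 listed miRNA without overlap, against 26 of all miRNAs (3.26%). Its log2 fold change was -0.30 ± 0.12 (SE), with an unadjusted p of 0.0262 and an adjusted p of 0.353 in edgeR's quasi-likelihood test. miR-181b-5p, with the same seed, averaged 2964 ± 182 CPM in coculture and 3265 ± 324 CPM in control, with an adjusted p of 0.601, and its groups overlapped. The other listed miRNAs with an unadjusted p under 0.05 were miR-193b-3p and miR-193a-3p (described for MCL1, log2 fold changes -0.48 and -0.53) and miR-483-3p (described for BBC3, 0.47). BCL2A1, BAX, PMAIP1 and BID had no miRNA in the list.

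**Figure D5:**
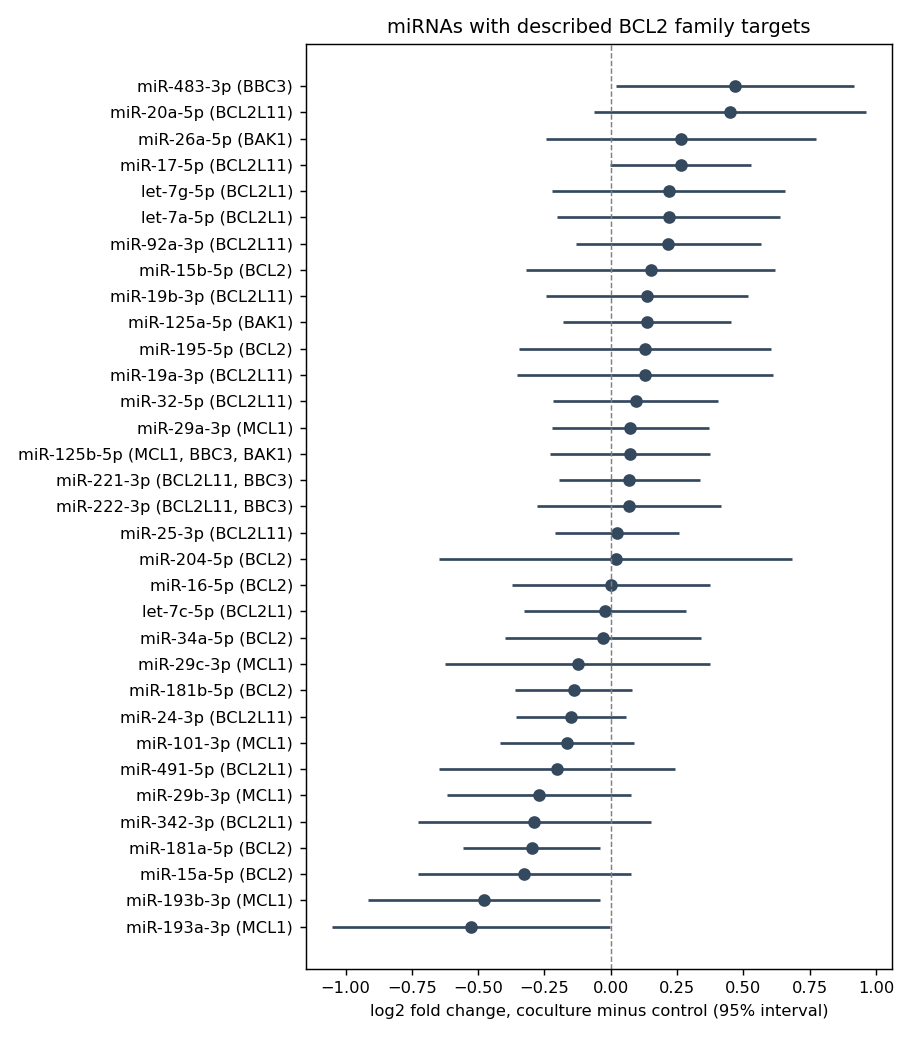
Log2 fold change of the 33 listed miRNAs, coculture minus control (horizontal axis), with the described target in brackets, points at the estimate and lines for the 95% interval, sorted by estimate. Most intervals include 0, and the estimates run from -0.53 for miR-193a-3p to 0.47 for miR-483-3p.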

How the data were processed

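RNA-seq and miRNA-seq were each run on 6 coculture and 4 control libraries, grouped by the treatment labels. Raw read counts per gene and per mature miRNA were deposited by the authors, with whole numbers and unequal library totals. The build GRCh38.p10 and the aligners HISAT2 2.0.4 and BWA are listed, per the submitters' processing notes, with no role given. The sources used here do not give the counting tool, annotation, strand setting or miRNA release. The number of unused value columns was 0.

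In R 4.3.3, edgeR 4.0.16 (TMM, filterByExpr by group, robust glmQLFit and glmQLFTest, Benjamini-Hochberg over all tested features, threshold 0.05) was fitted to each assay and tested on simulated data. SE is the log2 fold change divided by the square root of F. TPM used the deposited lengths over all 54261 features. Promoter and miRNA sequences came from RefSeq tables for GRCh38.p14 and the deposited miRNA table, and coordinates of genes from the deposited table. No pair of libraries agreed within sampling noise (smallest chi-square per degree of freedom 6.86), so none was treated as 1 library deposited again, which does not show that they were separate cultures. Intervals on counts cover counting error only.

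Members and lists were chosen with earlier results of these data known. Named were all 10 members, up to 4 called genes and the gene of each list highest in TPM, up to 5 genes nearest to BCL2A1 and BBC3, the 2 marker genes with most coculture reads per leukocyte list (1 is not reported here), and the most abundant miRNA per target. TNFAIP3, NFKB1, BMF, BNIP3L, BCL2L2, BAD, ABALON, miR-222-3p, miR-181a-5p, miR-193a-3p, miR-193b-3p and miR-483-3p, and markers at 0, were named after their values were seen. Alternatives were RLE and upper-quartile factors, DESeq2 1.42.0, limma-voom (limma 3.58.1), no filter, a replicate block, each library left out, and coculture 1 and 2 left out.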

Additional observations from a re-analysis of the deposited data

Results flagged for a closer look

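In 8 of 112 sets of libraries examined (1 gene, miRNA, marker sum, share or ratio in 1 group), the highest or lowest library was far from the others. Chance flags about 1 in 20 such sets, and none was a member. In coculture, NFKBIA had 182 CPM in library 4, against 96.5 to 117 in the other 5, and LYZ had 9.79 CPM in library 2, against 13.7 to 15.8. In control, NFKBIA had 54.8 CPM in library 2, against 29.7 to 33.2 in the other 3, and TNFAIP3 had 7.79 CPM in the same library, against 2.96 to 3.59. LYZ had 0.203 CPM in control 4, against 0.0427 to 0.0494 in the other controls. Control 1 stood apart for ITGAM with 0 CPM, against 0.0226 to 0.0247, for S100A9 with 0.0214 CPM, against 0, and for BMF with 0.214 CPM, against 0.113 to 0.124. The last 3 rest on at most 10 reads.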

How the results depend on the processing

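BCL2A1 kept its direction and call in 17 of 17 alternatives, with a log2 fold change of 2.59 to 3.08 and an adjusted p of 2.64e-13 to 0.0149, and no other member was called in any of them. None of the 33 listed miRNAs was called in any. Other results moved, and the cause was not tested. In the fit with a replicate block, coculture 5 and 6 have no control of the same number, so they carry no information on the group difference. Genes called higher over the whole table numbered 178, against 333 in DESeq2, 100 with a replicate block and 112 to 204 with 1 library left out. Genes called lower numbered 29, against 106 in DESeq2, 10 with the block, 112 without coculture 1 and 2, and 4 to 36 with 1 library left out. Listed cell death genes called lower numbered 1, against 0 with the block and 0 to 1 with 1 library left out. miRNAs called higher numbered 9, against 5 to 12 with 1 library left out. miRNAs called lower numbered 1, against 3 in DESeq2, 4 with no filter, 0 with RLE factors, upper-quartile factors, limma-voom, the block or without coculture 1 and 2, and 0 to 1 with 1 library left out.

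Signs turned only among estimates that were not called. For CYCS the log2 fold change was -0.015 in limma-voom and -0.047 with the replicate block, and that of PMAIP1 was -0.020 with the block. Without coculture 1 and 2 it was 0.018 for BCL2L11, 0.027 for BIRC5, 0.23 for PPIF, -0.14 for BNIP3L and -0.074 for miR-125b-5p. With 1 library left out it ran from -0.0051 to 0.12 for BCL2, -0.16 to 0.056 for BCL2L11, -0.055 to 0.11 for CYCS, -0.16 to 0.074 for PPIF and -0.13 to 0.0039 for DYNLL1. NFKB1 was called higher with upper-quartile factors, in DESeq2 and without coculture 1 and 2. With the block SESN1 (adjusted p = 0.145) and TNFAIP3 (adjusted p = 0.0781) were not called, which left 4 listed cell death genes higher, and 2 of 7 monocyte and macrophage and 8 of 12 pan-leukocyte markers were called.

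Same-numbered RNA-seq libraries correlated at 0.386, -0.083, 0.253 and 0.174 in their deviations from the group means, and same-numbered miRNA-seq libraries at 0.369, -0.034, 0.209 and 0.373. Differently numbered libraries were not set beside them, so these values cannot decide whether the numbers pair samples. No label says what the numbers mark, and the main fit did not pair by them. With the block, which draws nothing on the group difference from coculture 5 and 6, BCL2A1 had a log2 fold change of 3.02 and an adjusted p of 0.00502. Depth limits the scarce members: the control counts of BCL2A1 were 22 to 57 reads.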
